A study of Mus musculus with 79 samples.

Results

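The opioid system of the mouse brain was described through 7 genes: the mu (Oprm1), delta (Oprd1), kappa (Oprk1) and nociceptin (Oprl1) receptors and the precursors prodynorphin (Pdyn), proenkephalin (Penk) and prepronociceptin (Pnoc). They were taken by gene symbol out of 55471 gene identifiers, and the rule uses symbols only, not measured values. RNA came from the medial prefrontal cortex (mPFC) and the ventral hippocampus (vHipp) of 40 wild-type male CD-1 mice, an outbred stock, kept in groups. They were 9 to 10 weeks old by the general description of the animals, and their age when tissue was taken is not given in the sources used here. Unstressed mice (CTRL) were compared with mice exposed to chronic social defeat stress (CSDS), in which an aggressive resident defeats the mouse on 21 consecutive days and the mouse rejoins its own cage group each time. Each mouse then received 1 injection of saline or ketamine (10 mg/kg), an NMDA receptor antagonist with antidepressant action, and tissue was taken 7 days later. Each of the 4 combinations of stress and injection held 10 mice. The deposited counts held 79 libraries, 39 of mPFC and 40 of vHipp, with no mPFC library of 1 CSDS ketamine mouse. The resulting 39 mice had both regions. Tissue came as punches of 1 mm from slices of 200 µm, so each library is a mixture of cells, and fewer cells of a type cannot be told apart from less RNA per cell in any difference that follows.

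Opioid receptors are inhibitory receptors at the cell surface. They act through G proteins of the Gi/o class, which lower cyclic AMP, open potassium channels and close calcium channels, and so quiet the neuron or its terminals. Their ligands are cut from larger precursors by proprotein convertases at pairs of basic residues. Dynorphins, from Pdyn, prefer the kappa receptor, enkephalins, from Penk, act on delta and mu receptors, and nociceptin, from Pnoc, binds its own receptor. In the hippocampus Pdyn is a known gene of dentate granule cells, and kappa receptor signalling is associated with aversion and stress.

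What the precursors have in common can be read in their coding sequence, shown here because it sets which ligand each RNA can yield. The lines give, 5′ to 3′, a pair of lysine or arginine codons, the 12 bases of the opioid core in capitals (a tyrosine or phenylalanine codon, 2 glycine codons and a phenylalanine codon) and the 2 codons after it, from GENCODE M21 transcripts on GRCm38.
Pdyn copy 1: aaacgcTATGGCGGCTTTttgcgc
Pdyn copy 2: aaacgcTATGGGGGCTTCctgcgg
Pdyn copy 3: aagcgcTATGGTGGTTTCctgcgg
Penk copy 1: aagaagTACGGAGGCTTCatgaaa
Penk copy 6: aagaggTATGGGGGCTTCctgaag
Penk copy 7: aaaagaTACGGGGGCTTTatgcgg
Pnoc copy 1: aaaaggTTTGGGGGCTTCaccggg
The Pdyn coding sequence of 744 bases held 3 copies, each followed by a leucine codon, and the Penk coding sequence of 804 bases held 7, of which 6 were followed by a methionine codon and 1 (copy 6) by a leucine codon. Pnoc, with 636 coding bases, held 1 copy, which opens with phenylalanine in place of tyrosine. Of 21561 protein-coding genes searched in the same way, 175 (0.812%) held the core, 5 (0.0232%) held it after a pair of basic codons, and 2 (0.00928%), Pdyn and Penk, held more than 1 such copy. So 1 Penk transcript encodes 7 enkephalin cores and 1 Pnoc transcript a single nociceptin, and RNA levels below are levels of precursors and not of peptides.

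In the annotation (GRCm38, 1-based), Oprm1 (ENSMUSG00000000766) lies at chr10:6758506-7038198 on the plus strand, Oprd1 (ENSMUSG00000050511) at chr4:132110726-132144486 on the minus strand, Oprk1 (ENSMUSG00000025905) at chr1:5588466-5606131 on the plus strand and Oprl1 (ENSMUSG00000027584) at chr2:181715016-181720985 on the plus strand. The precursors Pdyn (ENSMUSG00000027400, chr2:129686565-129699844), Penk (ENSMUSG00000045573, chr4:4133531-4138819) and Pnoc (ENSMUSG00000045731, chr14:65400673-65425472) all lie on the minus strand. The exons of Oprm1 shared 96 bases with Ipcef1 on the opposite strand and those of Penk shared 233 bases with the noncoding A830012C17Rik. Since the strand setting of the counting is not given in the sources used here, reads of such a pair cannot be told apart. A830012C17Rik itself stood at 0.0353 ± 0.0529 CPM (SD, n = 39) in mPFC and 0.0510 ± 0.0705 CPM (SD, n = 40) in vHipp, whereas Ipcef1 stood at 127.8 ± 24.7 and 36.4 ± 12.5 CPM, far above Oprm1 itself.

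Levels are given in CPM, the counts of a gene scaled to 1 fixed library total after correction by trimmed mean of M values (TMM) factors. Library totals ran from 11726129 to 41767119 counts. Marker genes of the labels differed between the dissections on average, but not every marker separated them. Cux2, an upper cortical layer gene, averaged 200 CPM in mPFC and 34.1 in vHipp, and Prox1, a dentate granule cell gene, averaged 23.1 and 167. The summed level of 6 cortical layer genes was at least 390 CPM in mPFC and at most 171 in vHipp. Rorb, which is among these genes, averaged 24.8 and 19.3 CPM. The sum of 5 hippocampus genes averaged 448 CPM in mPFC and 1288 in vHipp, but the regions overlapped. It reached 1101 CPM in the mPFC library of mouse 2, above the lowest vHipp library at 970. Genes of striatal projection neurons, a neighbouring tissue rich in Penk and Pdyn, were low in both regions: Adora2a averaged 1.88 and 1.40 CPM, Gpr6 averaged 1.26 and 0.587, and Six3 averaged 0.526 and 0.702, with 2 mPFC libraries at 0. The summed level of the whole list of 14 striatal genes, many of them also used by cortical neurons, ran from 163 to 229 CPM in mPFC and from 165 to 242 in vHipp. In 10 libraries, 6 of mPFC and 4 of vHipp, the summed level of choroid plexus, oligodendrocyte, astrocyte, meninges or thalamus genes was over 3 times the region's median. The farthest was the vHipp library of CSDS saline mouse 9, with choroid plexus genes at 699.9 CPM, 31.7 times the median. That library had the lowest Oprm1 and Oprd1 of vHipp and ranked 39 of 40 for Oprl1 and Penk. The fits and relations were repeated without these libraries of high marker sums.

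All 7 genes were detected in every library of both regions, at levels that differed widely between genes. Oprl1, the nociceptin receptor, was the most abundant receptor RNA: its lowest, median and highest libraries stood at 32.5, 43.6 and 52.4 CPM in mPFC and at 34.6, 47.1 and 56.5 CPM in vHipp. Oprm1, the receptor of morphine, was the least abundant in mPFC at 0.342, 1.19 and 2.58 CPM, and it stood at 0.440, 2.17 and 3.76 CPM in vHipp. The lowest of these was the library of high choroid plexus genes, and the next lowest stood at 0.787 CPM. Those Oprm1 levels rest on 7 to 54 counts per mPFC library and at least 8 per vHipp library, so counting error alone gives a coefficient of variation of about 19.3% and 14.7%.

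**Figure D1:**
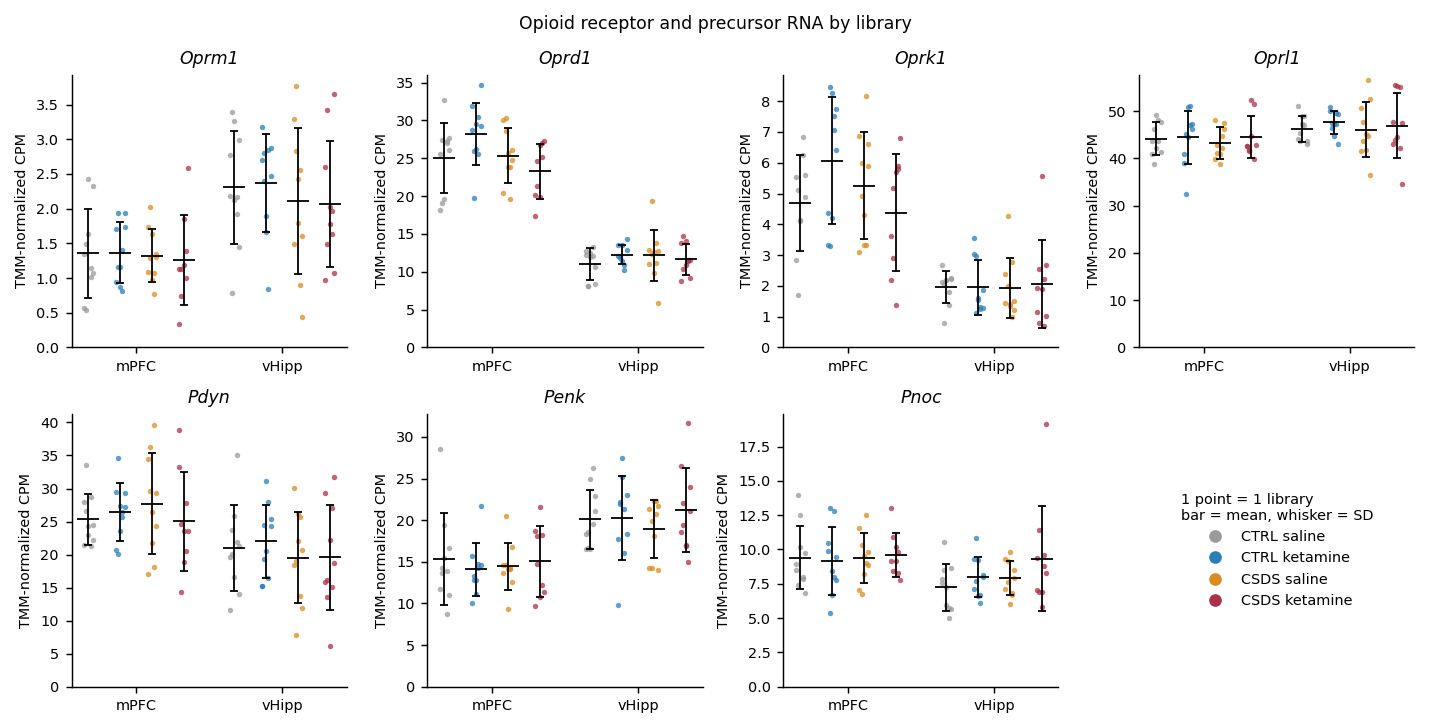
CPM of each gene (vertical axis, from 0) in every library, by region and by the 4 groups of stress and injection; 1 point is 1 library, the bar is the group mean and the whisker the SD. Oprd1 and Oprk1 sit higher in mPFC than in vHipp in every group, whereas the 4 groups of 1 region overlap for each of the 7 genes.

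For a comparison between genes, CPM was divided by the exon length of the gene in kilobases. In mPFC the order was Oprl1 (11.7 CPM per kb), Pdyn (9.06), Penk (9.02), Oprd1 (6.35), Pnoc (4.35), Oprk1 (0.559) and Oprm1 (0.165). Neighbours in that order mostly overlapped: Pdyn stood above Penk in 24 of 39 libraries, Oprl1 above Pdyn in 33 and Oprd1 above Pnoc in 34, and only Pnoc and Oprk1 had ranges that did not meet. In vHipp the order was Oprl1 (12.5 CPM per kb), Penk (12.3), Pdyn (7.11), Pnoc (3.76), Oprd1 (2.93), Oprm1 (0.275) and Oprk1 (0.216). There Oprl1 stood above Penk in 22 of 40 libraries and Pnoc above Oprd1 in 28, whereas Oprd1 and Oprm1 had ranges that did not meet. The mu receptor gene has 31 annotated transcripts that add up to 8037 bases of exon, while its longest transcript has 2420, and with the longest transcript as the length its level became 0.549 CPM per kb in mPFC and 0.914 in vHipp, with its place in the order the same. That of Oprk1, whose longest transcript has 4675 of 9151 bases, became 1.09 in mPFC and 0.4226 in vHipp, also at the same place.

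The regions were compared first. In the quasi-likelihood test of edgeR, adjusted after Benjamini and Hochberg over all genes, averaged over the 4 groups, all 7 genes differed, 4 with more RNA in mPFC (Oprk1, Oprd1, Pdyn and Pnoc) and 3 with more in vHipp (Oprm1, Penk and Oprl1). Calls were common in this comparison: 48.9% of the 31534 genes tested differed, 24.5% with more RNA in mPFC and 24.4% with more in vHipp. As a description of size, the median absolute log2 fold change was 0.92 over the 4 receptors and 0.35 over the 3 precursors, against 0.26 over all genes tested.

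Oprk1, the receptor of dynorphin, differed most. Its lowest, median and highest libraries stood at 1.38, 5.17 and 8.47 CPM in mPFC and at 0.686, 1.89 and 5.58 CPM in vHipp. The ranges overlapped, but mPFC was the higher region in 36 of the 39 mice with both. The log2 fold change was 1.34 (SE 0.14), or 2.53-fold, with an adjusted p of 2.00e-14 in edgeR's quasi-likelihood test. Oprd1, the delta receptor, stood at 17.3, 26.0 and 34.6 CPM in mPFC and at 5.89, 12.0 and 19.4 CPM in vHipp, where the lowest was again the library of high choroid plexus genes and the next stood at 8.08 CPM. It was the only member whose mPFC library was the higher in all 39 mice, a sign shared in 1 direction or the other by 15.0% of genes with a mean of at least 1 CPM. Its log2 fold change was 1.11 (SE 0.06), or 2.15-fold, with an adjusted p of 1.25e-29 in the same test.

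Oprm1 went the other way. Its vHipp library was the higher in 36 of 39 mice, with a log2 fold change of -0.74 (SE 0.13) and an adjusted p of 2.36e-06 in edgeR's test. Thus the kappa and mu receptors, both at low levels, exchanged places in the order of RNA per kilobase between the regions. Oprl1, by contrast, hardly differed: its log2 fold change of -0.09 (SE 0.03, adjusted p = 0.0261 in edgeR's test) had a 95% interval from -0.15 to -0.02, and 26 of 39 mice were higher in vHipp. That call was lost when mouse set 1 (adjusted p = 0.419), 2 (0.277) or 4 (0.0921) was left out and with no filter on low counts (0.0842), a set being 4 CSDS mice and 4 CTRL mice, each 4 with consecutive numbers.

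Among the precursors, Penk was higher in vHipp, where its lowest, median and highest libraries stood at 9.83, 20.3 and 31.6 CPM against 8.73, 14.2 and 28.6 CPM in mPFC. The vHipp library was the higher in 34 of 39 mice (log2 fold change -0.45, SE 0.08, adjusted p = 5.08e-07 in edgeR's test). Pdyn leaned to mPFC, with 14.3, 25.6 and 39.6 CPM there and 6.17, 20.3 and 35.0 CPM in vHipp. Its mPFC library was the higher in 29 of 39 mice (log2 fold change 0.35, SE 0.09, adjusted p = 0.000946 in edgeR's test). Pnoc, at 5.36, 9.15 and 14.0 CPM in mPFC and 4.99, 7.78 and 19.2 CPM in vHipp, was likewise higher in mPFC in 29 of 39 mice. Its log2 fold change of 0.22 (SE 0.07, adjusted p = 0.00872 in edgeR's test) lost its call without mouse set 1 (adjusted p = 0.0815) or set 2 (0.115).

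**Figure D2:**
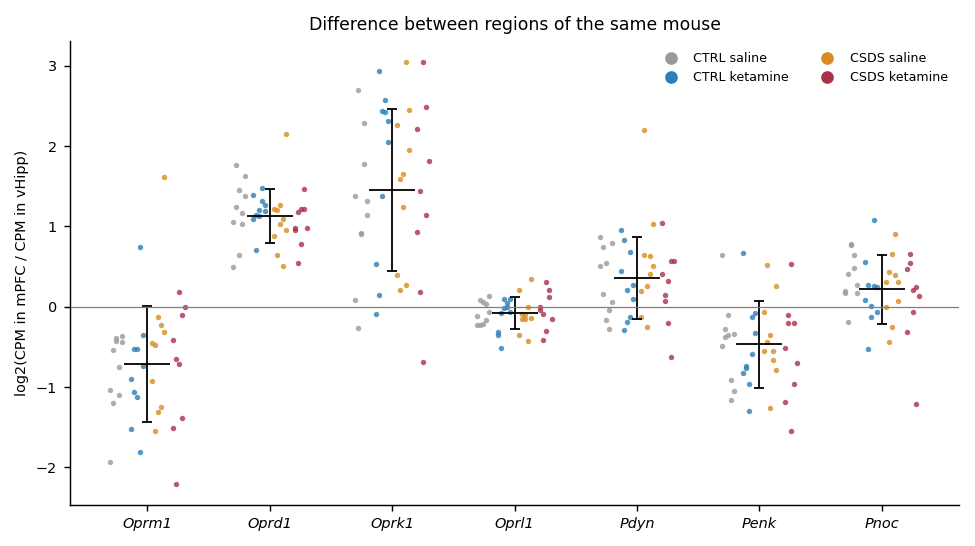
Log2 ratio of mPFC to vHipp CPM within each of the 39 mice that had both regions (vertical axis; 1 point is 1 mouse, coloured by group), for each gene. All 39 mice lie above 0 for Oprd1 and 36 for Oprk1, whereas 36 lie below 0 for Oprm1 and 34 for Penk.

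In the 10 saline CTRL mice alone, 5 of the 7 genes passed the same edgeR test, against 29.0% of all genes. The log2 fold changes were 1.18 (SE 0.12) for Oprd1, 1.25 (SE 0.27) for Oprk1, -0.79 (SE 0.27) for Oprm1, -0.39 (SE 0.15) for Penk and 0.37 (SE 0.15) for Pnoc. Oprd1 and Oprk1 had adjusted p-values of 1.87e-14 and 0.00011 in edgeR's test, while Oprm1 (0.0175), Penk (0.0441) and Pnoc (0.0469) lay nearer the threshold of 0.05. The 2 genes that missed it were Pdyn (log2 fold change 0.27, 95% interval -0.09 to 0.64) and Oprl1 (-0.07, -0.20 to 0.06). Without mouse set 2, 4 or 5 the count fell to 3, 2 and 3. Penk lost its call with the size factors of DESeq2 in place of TMM (adjusted p = 0.0505), with no filter on low counts (0.0557) and without set 2, 3, 4 or 5 (adjusted p from 0.0968 to 0.236), Pnoc without set 1, 2, 4 or 5 (0.0587 to 0.200) and Oprm1 without set 4 (0.0625) or without the libraries of high marker sums (0.05003). With the mouse as a block, Penk kept its call in edgeR (adjusted p = 0.0358) and lost it in limma-voom (0.0650).

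The rest of the pathway was measured for 33 further genes, and 24 of them differed between the regions, 18 with more RNA in mPFC and 6 with more in vHipp, beside the 48.9%, 24.5% and 24.4% of all genes given above. Proopiomelanocortin (Pomc), the precursor of beta-endorphin, was low at 0.897 ± 0.240 CPM in mPFC (SD, n = 39) and 0.807 ± 0.243 CPM in vHipp (SD, n = 40), and did not pass the test (edgeR adjusted p = 0.231). Of the 5 genes that process precursors, 3 were higher in mPFC and 1 in vHipp. The convertase Pcsk2, which releases dynorphins and enkephalins, averaged 556 CPM in mPFC and 291 in vHipp (log2 fold change 0.93), whereas carboxypeptidase E (Cpe), which trims the basic residues, averaged 1539 and 2185 CPM (-0.50). Of the 5 genes that break peptides down, 3 were higher in mPFC, among them aminopeptidase N (Anpep, 4.50 against 2.24 CPM, log2 fold change 1.01), and 1 in vHipp, the endothelin-converting enzyme Ece2 (3.30 against 7.41 CPM, -1.17).

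Downstream of the receptors, the 5 genes of inhibitory G protein alpha subunits were the most even, with 2 of them higher in mPFC by small amounts (Gnai2, log2 fold change 0.17, and Gnaz, 0.16) and 0 higher in vHipp. All 9 regulators of receptors and G proteins differed, 7 of them higher in mPFC. Rgs4, which speeds the shutting off of Gi/o signals, averaged 422 CPM in mPFC and 124.9 in vHipp (log2 fold change 1.76), and the arrestin Arrb1, which desensitizes receptors, averaged 368 and 265 (0.48). Among 8 effectors 3 were higher in mPFC and 2 in vHipp. The potassium channel subunit Kcnj9 averaged 198 and 94.4 CPM (log2 fold change 1.07) and the adenylyl cyclase Adcy8 averaged 37.5 and 19.5 (0.95). Adjusted p-values of the 10 genes named here beside Pomc were at most 1.58e-05 in edgeR's quasi-likelihood test. The median absolute log2 fold change over the 33 genes was 0.30, beside 0.26 over all genes tested.

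Whether stress or ketamine changed these genes was asked within each region with 7 comparisons: CSDS against CTRL with each injection and on average, ketamine against saline in each stress group and on average, and the interaction. None of the 49 tests of members in mPFC and none of the 49 in vHipp passed an adjusted p of 0.05 in edgeR's quasi-likelihood test. The background was the same, with 0% of 202951 tests of all genes in mPFC and 0% of 202937 in vHipp. At an unadjusted p under 0.05 there was 1 member test in mPFC and 0 in vHipp, beside 4.09% of all tests in mPFC and 4.68% in vHipp. DESeq2 called 0 as well, but gave no adjusted p for 7 of the 98 tests. Of 56 pairs of groups that differ by 1 factor (7 genes, 2 regions and 4 pairs), all 56 had overlapping ranges of CPM, and of 124928 such pairs over all genes of at least 1 CPM, 0% did not overlap.

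The 1 test under the unadjusted threshold was Oprd1 in the mPFC of ketamine-injected mice. Its lowest, median and highest libraries stood at 19.7, 29.0 and 34.6 CPM in CTRL ketamine (28.2 ± 4.09, SD, n = 10) and at 17.3, 24.6 and 27.2 CPM in CSDS ketamine (23.3 ± 3.64, SD, n = 9). The CSDS ketamine libraries all stayed below the CTRL ketamine median, but the ranges overlapped between 19.7 and 27.2 CPM. The log2 fold change of -0.27 (SE 0.10) had an unadjusted p of 0.0118 and an adjusted p of 0.830 in edgeR's test. In that comparison 5.80% of all genes were under the unadjusted threshold and 3.38% were so with less RNA in CSDS. With saline the same stress contrast of Oprd1 was 0.02 (SE 0.10), from 25.0 ± 4.64 CPM in CTRL to 25.3 ± 3.64 in CSDS (SD, n = 10 each), and the interaction was -0.28 (SE 0.14, unadjusted p = 0.0520, adjusted p = 0.898 in edgeR's test). With the mouse sets as a covariate, the contrast with ketamine was -0.29 with an adjusted p of 0.407 in edgeR and 0.262 in DESeq2.

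Oprk1 in mPFC showed the same arrangement of means with a wider spread. CTRL ketamine stood at 3.30, 6.74 and 8.47 CPM (lowest, median and highest of 10) and CSDS ketamine at 1.38, 5.17 and 6.79 CPM (of 9). The groups overlapped for most of their ranges. The log2 fold change was -0.45 (SE 0.24, unadjusted p = 0.0677, adjusted p = 0.830 in edgeR's test), with a 95% interval from -0.93 to 0.02. The stress contrast with saline was 0.15 (SE 0.23) and the interaction -0.61 (SE 0.34, adjusted p = 0.898 in edgeR's test). The lowest of the CSDS ketamine libraries was also 1 of the 3 mPFC libraries with high oligodendrocyte genes, and without the 6 mPFC libraries of high marker sums the contrast was -0.23 for Oprk1 (adjusted p = 0.996 in edgeR's test) and -0.28 for Oprd1.

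The precursor nearest the threshold was Pnoc in vHipp, with lowest, median and highest libraries at 4.99, 7.39 and 10.5 CPM in CTRL saline, 6.07, 7.85 and 10.8 in CTRL ketamine, 6.03, 7.80 and 9.82 in CSDS saline and 5.79, 8.53 and 19.2 in CSDS ketamine. The highest of these belonged to the library with high astrocyte genes, which also had the highest summed CPM in vHipp of interneuron genes (1279 against a median of 836) and of microglia genes (257 against 94.4), and the other CSDS ketamine libraries reached at most 11.4 CPM. The stress contrast averaged over injections was 0.18 (SE 0.11, unadjusted p = 0.0983, adjusted p = 0.590 in edgeR's test), and 0.09 (adjusted p = 0.856) without the vHipp libraries of high marker sums. Pdyn in vHipp, at medians of 20.7 CPM in CTRL saline, 22.4 in CTRL ketamine, 19.8 in CSDS saline and 17.4 in CSDS ketamine, had a stress contrast of -0.12 (SE 0.15, adjusted p = 0.839 in edgeR's test). The summed CPM of the 7 dentate granule cell genes described below was likewise lower in CSDS, at 458.5 ± 140.5 in CTRL saline, 457.7 ± 101.99 in CTRL ketamine, 373.6 ± 133.7 in CSDS saline and 332.8 ± 111.6 in CSDS ketamine (SD, n = 10 each), and its part in the Pdyn contrast was not tested.

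**Figure D3:**
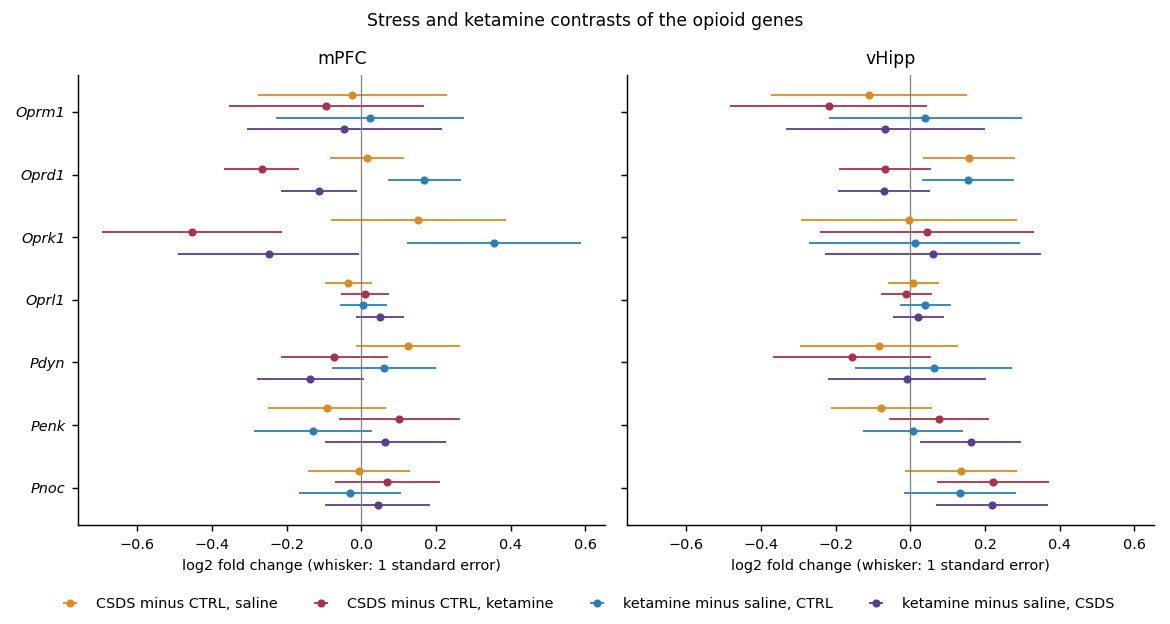
Log2 fold changes of the 7 genes (horizontal axis) in the 4 simple contrasts of stress and injection, for mPFC (left) and vHipp (right); points are edgeR estimates and whiskers 1 standard error. The estimates of Oprl1 lie between -0.03 and 0.05 and those of Oprk1 between -0.45 and 0.36.

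The intervals show how precisely each change was estimated. Stress was given to whole cage groups, and the main fit had no term for the group. Intervals of the stress contrasts may therefore be too narrow. Over the 8 simple contrasts in both regions, the 95% intervals of Oprl1 stayed within -0.16 and 0.17 on the log2 scale, so changes beyond that range lay outside them. Those of Oprd1 reached from -0.47 to 0.40, of Penk from -0.44 to 0.43, of Pnoc from -0.30 to 0.51 and of Pdyn from -0.57 to 0.48. The intervals were widest for the low receptors, from -0.93 to 0.81 for Oprk1 and from -0.74 to 0.55 for Oprm1. Tests of whether the stress or ketamine effect differed between the regions found 0 of 7 members in either, with 0% of all genes at the adjusted threshold in edgeR's test. None of the members passed an unadjusted p of 0.05 there, against 5.16% of all tests. In the wider pathway, 0 of 462 tests passed the adjusted threshold and 20 (4.33%) the unadjusted one, 9 in mPFC and 11 in vHipp, which is near the background.

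Although the groups did not separate, single mice differed by more than is usual for genes at such levels. In vHipp the coefficient of variation of Pdyn was 32.1%, and 96.3% of the 2887 genes whose mean lay within 1.5-fold of it varied less. Oprk1 varied by 49.2% in vHipp (95.1% of such genes varied less) and by 36.4% in mPFC (94.7%). Pdyn (22.5%) and Penk (26.7%) in mPFC also varied more than 94.2% and 93.6% of genes at their levels. The mPFC libraries with high oligodendrocyte genes (mice 22, 6 and 2) ranked 1, 3 and 17 of 39 for Penk. For Pdyn the same libraries ranked 31, 36 and 38. The nociceptin receptor was the exception, at 9.47% in mPFC and 10.1% in vHipp, near the middle of genes of its level. Counting error alone gives a coefficient of variation of 4.86% for Pdyn in vHipp but 15.4% for Oprk1.

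Mouse-to-mouse variation was therefore set against the summed CPM of marker genes of 4 cell types or tissues. Both sides were taken on the log2 scale (with 0.5 added to the CPM of a member) and centred on the mean of their group, so that group differences do not enter, and p-values came from 100000 permutations within groups, adjusted over all genes of at least 1 CPM. With 7 members, 8 combinations of list and region and 1 comparison of the regions, 63 relations were computed. The labels name no sequencing batch or social group, so values within such batches could not be given. The permutations did not keep cage groups together. A relation that cage mates or a batch share therefore cannot be told apart from one of single mice.

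In vHipp, Pdyn followed the dentate granule cell list (Prox1, Dsp and 5 other genes). Dentate genes summed to between 136.7 and 679.4 CPM. In the 2 libraries where the sum was lowest, 136.7 and 148.8 CPM, Pdyn stood at 6.17 and 7.89 CPM, its lowest values in vHipp, and in the library where it was highest Pdyn stood at 35.0 CPM, its highest. Pearson's r was 0.849 and Spearman's rho 0.806 over 40 libraries, with an adjusted permutation p of 0.000357 from the smallest p these permutations can give, and r was 0.766 without the 2 libraries farthest from the median. Such relations were not rare, with 14.8% of genes past the threshold, but 99.5% of genes had a lower r than Pdyn. Without the libraries of high marker sums, r was 0.877.

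Oprk1 in vHipp went opposite to its ligand's precursor. The same 2 libraries of low dentate genes held its highest levels, 5.58 and 4.26 CPM, against a region median of 1.89. Its r with the dentate list was -0.636 (rho = -0.534, adjusted permutation p = 0.00102), -0.454 without the 2 farthest libraries, and -0.571 without the libraries of high marker sums (adjusted permutation p = 0.00843). Penk followed the dentate list weakly (r = 0.421, rho = 0.419, adjusted permutation p = 0.0430, r = 0.353 without the 2 farthest), and lost its call without the libraries of high marker sums (r = 0.399, adjusted permutation p = 0.0563). Oprl1 (r = -0.369, rho = -0.461, adjusted permutation p = 0.161, r = -0.288 without the 2 farthest) passed only when those libraries were left out (r = -0.473, adjusted permutation p = 0.0476). For Oprm1, Oprd1 and Pnoc r lay between -0.257 and 0.033 with no call.

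**Figure D4:**
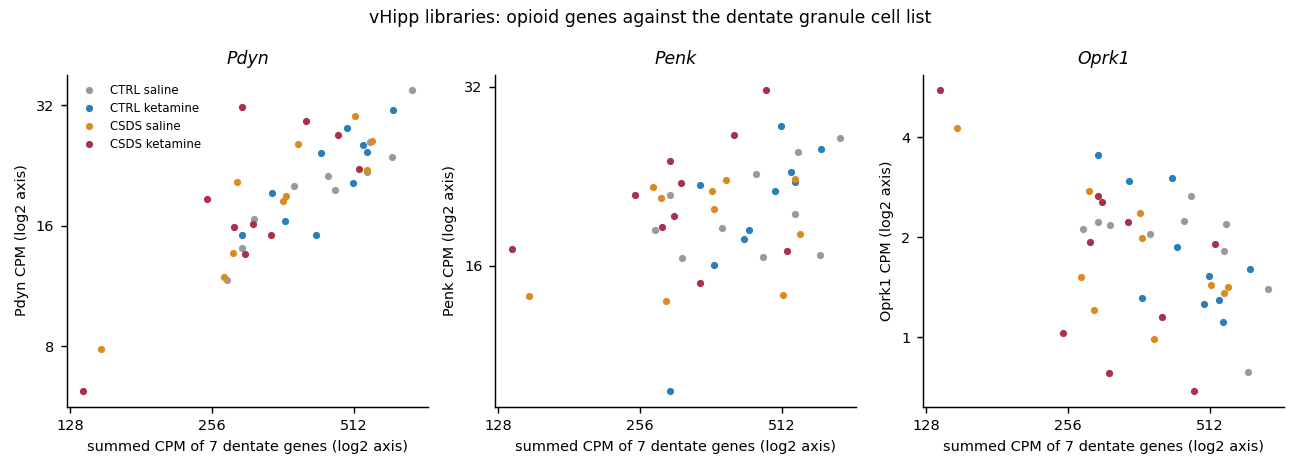
CPM of Pdyn, Penk and Oprk1 (vertical axes) against the summed CPM of 7 dentate granule cell genes (horizontal axis) in the 40 vHipp libraries, coloured by group. Pdyn rises along the axis from 6.17 to 35.0 CPM, and the 2 libraries with the lowest sums hold the highest Oprk1.

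In mPFC, where dentate granule cells are absent by anatomy, the same 7 genes summed to only 57.3 to 92.2 CPM, Prox1, which inhibitory neurons also use, averaged 23.1 CPM and Dsp 2.18. Even so, 3 receptors were lower where that sum was higher: Oprl1 (r = -0.685, rho = -0.644, adjusted permutation p = 0.000855, r = -0.603 without the 2 farthest), Oprk1 (r = -0.643, rho = -0.570, adjusted permutation p = 0.00154, r = -0.600) and Oprd1 (r = -0.478, rho = -0.431, adjusted permutation p = 0.0334, r = -0.437). In that relation 16.3% of genes passed. Without the libraries of high marker sums r was -0.725, -0.676 and -0.639 for the same 3 receptors (adjusted permutation p = 0.00256, 0.00454 and 0.00783). The list does not measure dentate cells in cortex, and what the sum stands for there was not tested. Pdyn in mPFC had an r of 0.204 with it and no call.

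Inhibitory interneurons are a known source of Penk and Pnoc in cortex and hippocampus. Their list of 8 genes summed to 829.3 ± 62.8 CPM in mPFC (SD, n = 39) and 852.2 ± 124.2 in vHipp (SD, n = 40), with Gad1 at 303 and 373 CPM. In vHipp, Oprk1 was higher where the interneuron sum was higher (r = 0.521, rho = 0.558, adjusted permutation p = 0.0195, r = 0.483 without the 2 farthest), beside 11.8% of all genes, but the call was lost without the libraries of high marker sums (r = 0.473, adjusted permutation p = 0.0754). Pnoc had an r of 0.446 (rho = 0.286, adjusted permutation p = 0.0682) that fell to 0.225 without the 2 farthest libraries, and passed only with CPM of the plain library total (r = 0.521, adjusted permutation p = 0.0152). In mPFC 0% of genes passed. The largest member value there was that of Penk (r = 0.453, rho = 0.446, r = 0.463 without the 2 farthest, unadjusted permutation p = 0.00429, adjusted p = 0.571).

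The striatal list gave 0% of genes in mPFC and 0% in vHipp. In mPFC the r of Penk with it was 0.251 and that of Pdyn 0.102 (adjusted permutation p = 1.00 each). Without the libraries of high marker sums the r of Penk there was 0.486 (rho = 0.412, unadjusted permutation p = 0.00615, adjusted p = 1.00). In vHipp the values of Penk and Pdyn were 0.369 (rho = 0.396, adjusted permutation p = 0.667, r = 0.297 without the 2 farthest) and 0.425 (rho = 0.468, adjusted permutation p = 0.611, r = 0.419). With CPM of the plain library total they were 0.532 (rho = 0.573, unadjusted permutation p = 0.00025, adjusted p = 0.111) and 0.574 (rho = 0.579, unadjusted permutation p = 0.0004, adjusted p = 0.138), larger but again not called. In mPFC that scaling gave the highest r to Pnoc, at 0.431 (rho = 0.418, unadjusted permutation p = 0.0124, adjusted p = 0.988), against 0.305 with TMM factors. Oligodendrocyte genes varied widely in mPFC, from 475 to 5588 CPM, and Pdyn was lower where they were higher (r = -0.620, rho = -0.607, adjusted permutation p = 0.00213, r = -0.571 without the 2 farthest), beside 10.8% of all genes. Without the libraries of high marker sums, r was -0.528 and the call was lost (adjusted permutation p = 0.0522). In vHipp that list related to 6.94% of genes and to no member.

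Finally, the 2 regions of each mouse were compared with each other. A mouse with more of a gene in 1 region tended to have more in the other: the median r over all genes was 0.294, and 35.0% of genes passed the threshold over the 39 mice. Oprm1 was among them (r = 0.418, rho = 0.415, adjusted permutation p = 0.0272, r = 0.354 without the 2 farthest mice, r = 0.543 without the libraries of high marker sums). Oprk1 had the opposite sign (r = -0.426, rho = -0.420, adjusted permutation p = 0.0346, r = -0.427 without the 2 farthest), and only 0.0922% of genes had a lower r. That call was lost without the libraries of high marker sums (r = -0.380, adjusted permutation p = 0.123). Penk also had a negative r (-0.262, rho = -0.288, adjusted permutation p = 0.196, r = -0.287 without the 2 farthest), and the other members lay between 0.010 (Oprl1) and 0.206 (Pdyn) with no call. Without the libraries of high marker sums r moved from 0.139 to 0.4222 for Pnoc (adjusted permutation p = 0.0917) and from 0.186 to 0.362 for Oprd1 (adjusted permutation p = 0.148).

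**Figure D5:**
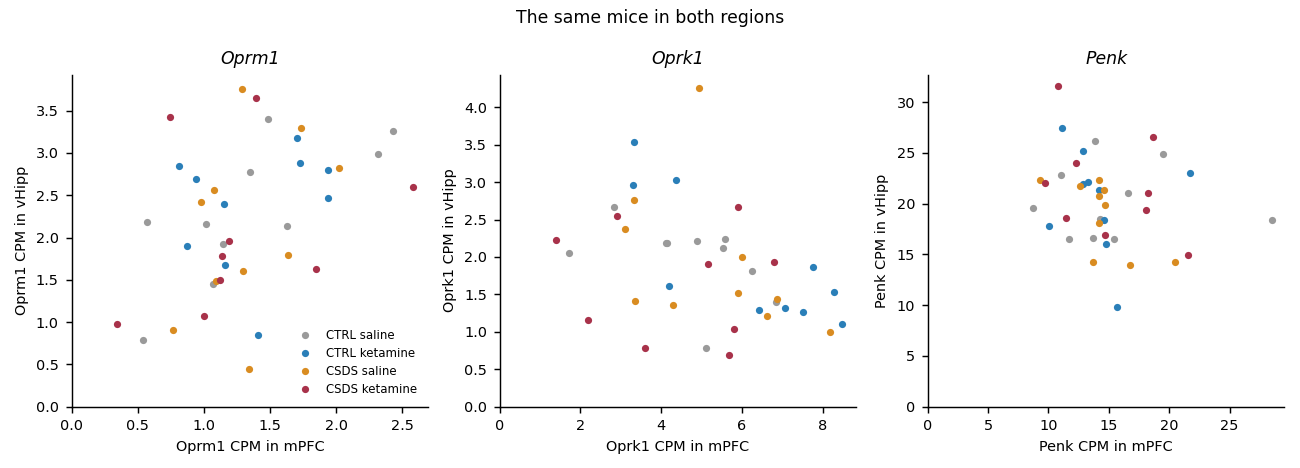
CPM in mPFC (horizontal axis) and in vHipp (vertical axis) of Oprm1, Oprk1 and Penk in the 39 mice with both regions, coloured by group; 1 point is 1 mouse. Oprm1 points lean upwards to the right and Oprk1 points downwards, with wide scatter (r = 0.418 and -0.426 for the group-centred log2 values).

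Pairs of members were compared over the libraries of each region, as a description, since their values share depth and dissection. Given are those with r over 0.5 in size, a limit set with the values known. In vHipp, Pdyn ran opposite to Oprk1 (r = -0.641, rho = -0.564) and to Oprl1 (r = -0.634, rho = -0.668). There Oprd1 ran with Oprl1 (r = 0.582, rho = 0.566) and Oprm1 (r = 0.552, rho = 0.398). Mouse 9 was lowest and mouse 4 highest for both Oprd1 and Oprm1. Over the 36 libraries without high marker sums, the r of Oprd1 with Oprl1 was 0.403 and with Oprm1 0.514 (rho = 0.445 and 0.440), and that of Pdyn was -0.631 with Oprk1 and -0.588 with Oprl1. In mPFC, Oprd1 ran with Oprm1 (r = 0.568, rho = 0.5) and Oprk1 (r = 0.562, rho = 0.539), and Oprk1 with Oprl1 (r = 0.556, rho = 0.533). Pnoc ran opposite to Oprm1 (r = -0.538, rho = -0.4996), Oprd1 (r = -0.529, rho = -0.520) and Oprk1 (r = -0.543, rho = -0.582) there. These 6 had r from 0.556 to 0.688 in size, with the same signs, over the 33 libraries without high marker sums. The nearest pair under the limit was Oprd1 with Oprl1 in mPFC (r = 0.499). It passed the limit without the libraries of high marker sums (0.553), as did Oprk1 with Oprl1 (0.516) and with Oprd1 (0.502) in vHipp. Many other genes lay closer to each member than these partners did: ranked by r from the highest, Oprd1 was number 818 of 15656 genes for Oprm1 and number 730 for Oprk1 in mPFC, and Oprl1 was number 717 of 15574 for Oprd1 in vHipp. Pdyn was number 15507 for Oprk1 in vHipp, near the opposite end of the ranking.

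The genes whose levels over the libraries of a region were most like each member, by Pearson's r over all genes of at least 1 CPM, stood closest for Oprk1 in mPFC and Pdyn in vHipp. For Oprk1 in mPFC they were the relaxin receptor Rxfp1 (r = 0.900), the guidance ligand Sema3e (0.853) and the synaptic organizer Cbln1 (0.840) over 39 libraries, and in vHipp Dpysl3 (0.800), the muscarinic receptor Chrm5 (0.788) and Vegfd (0.760) over 40. For Pdyn they were Plekha2 (0.905), the matrix protein gene Npnt (0.861) and Mcm6 (0.845) in vHipp, and Susd4, Cpne5 and H2-DMa (0.815 to 0.813) in mPFC. Oprd1 was most like the semaphorin receptor subunit Plxna1 (0.879) in mPFC and Ncoa4 (0.827) in vHipp, Oprl1 most like Fam43b (0.853) and Mtmr4 (0.825), and Oprm1 most like Hectd4 (0.791) and Ankfy1 (0.862). Pnoc was most like Thrsp (0.768) in mPFC and Gm2a (0.823) in vHipp. Penk had no close match, with Tuba8 at 0.632 in mPFC and Gm49593 at 0.636 in vHipp. No gene was the nearest match of a member in both regions.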

How the data were processed

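The authors punched both regions, extracted RNA, removed samples with RIN under 8, and sequenced Illumina Stranded mRNA libraries as paired reads of 151 nt. Per the labels the submitters' processing notes name bcl2fastq 2.20.0.422, CASAVA and GRCm38; the aligner, the counter and its strand setting are not given in the sources used here. The deposited table holds raw counts per gene and library, with a gene length column equal to the union of GENCODE M21 exons for all 7 members.

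Of 55471 identifiers, 55144 matched a symbol in GENCODE M21. Genes with a total count over 10 and detected in more than 3 libraries were fitted with edgeR 4.0.16 (R 4.3.3; TMM factors, quasi-likelihood test, two-sided, Benjamini-Hochberg adjustment over all genes), per region for stress and ketamine and over both regions for region differences. Same-numbered libraries of the regions come from 1 mouse per the labels, which pairs them. Correlations, permutations and levels were computed in Python 3.11.15 with numpy 2.4.6, scipy 1.17.1 and pandas 2.3.3. The fits were also tested on simulated data with known fold changes, which were larger than the stress and ketamine contrasts of the members. Alternatives were DESeq2 1.42.0, limma 3.58.1 (voom), other normalizations and filters, a mouse block, and leaving out each of 5 sets of mouse numbers. A set joined CSDS and CTRL mice by consecutive numbers, whereas a social box held mice of 1 stress condition only. The sharing of a box was thus not modelled, and the social boxes that the study's model used are not in the labels. Social rank is likewise not in the labels. The study removed 1 outlier that it does not name. Whether it was the mPFC library missing from the deposited counts is not given in the sources used here. All 79 libraries in those counts were kept. The members and gene lists were chosen with earlier results of these data known. The genes named from the pathway list are the 2 with the smallest p in each role, and from the likeness ranking the first 1 to 3. The oligodendrocyte list and the setting without libraries of high marker sums were added after the data had been seen. Intervals on counts cover counting error only.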

Additional observations from a re-analysis of the deposited data

Results flagged for a closer look

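Of 56 groups of libraries (7 genes, 2 regions and 4 combinations of stress and injection), 3 held a library whose gap to the nearest other was large for the range of its group, about what chance gives, since it does so in about 1 of 20 groups. In vHipp, mouse 5 (CSDS ketamine) had 5.58 CPM of Oprk1, and the next library of its group had 2.66. That library also had the lowest Pdyn (6.17 CPM) and the lowest dentate sum (136.7 CPM) of vHipp, and 3.38 times the median of meninges genes. In mPFC, mouse 40 (CTRL ketamine) had 21.7 CPM of Penk against 15.6 in the next. In vHipp, mouse 11 (CSDS ketamine) had 19.2 CPM of Pnoc against 11.4 in the next, together with 3.00 times the median of astrocyte genes and the lowest Oprl1 of vHipp (34.6 CPM).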

How the results depend on the processing

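Under the alternatives, 330 summary results kept their value within 1.5 times or stayed at 0, and 12 moved. Many of the 330 were counts of calls for stress and ketamine, which were 0 in the main fit. Their staying the same says little about stability. Of the single values, 484 kept their call or, where there was no test, their size, 23 lost their call, 2 gained one, and 6 levels per kilobase (Oprm1, Oprk1 and Oprl1 in both regions) moved by more than 1 SD between libraries with the longest transcript as length. The sign changed in 11 correlations, all without a call in either setting. With the mouse as a block (the replicate pairing), edgeR called 7 of 7 members between regions and 15430 genes in all (15415 without it), and it changed no call of a member. In limma-voom with the block the call of Penk in saline CTRL mice was lost. Members called between regions in saline CTRL mice numbered 5, but 3 without set 2, 2 without set 4 and 3 without set 5 (4 with RLE factors or no filter). For stress, where edgeR called 0 genes, DESeq2 called 14 in vHipp averaged over injections. DESeq2 with the sets as a covariate called 77 there, 1 in vHipp with saline, 2 in mPFC with ketamine and 2 in mPFC on average, none of them a member; the cause was not tested. Without libraries of high marker sums, members related between regions of the same mouse numbered 1 in place of 2, members related to interneuron genes in vHipp 0 in place of 1, and members related to oligodendrocyte genes in mPFC 0 in place of 1, with fewer samples in each. With CPM of the plain library total, 2 members related to interneuron genes in vHipp. Depth limits Oprm1 most in mPFC, at 7 counts in its lowest library, and Oprk1 and Oprm1 in vHipp.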
